A study of Mus musculus with 95 samples.

Results

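Pf4, Ppbp, Vwf, Itga2b, Gp1bb, Gp9, Treml1, F2r and Cavin2 were listed as genes of platelets and megakaryocytes that blood stem cells also express. These 9 genes were taken by symbol from a list, out of 53465 gene entries, and were followed through 95 bulk RNA-seq libraries of mouse bone marrow cells made with SMART-Seq v4, a kit that copies full-length cDNA from little RNA. Each library held sorted cells labelled HSC (hematopoietic stem cells), HPC-2 or HPC-1, the last 2 being progenitor populations of the same Lin-Sca1+Kit+ (LSK) compartment. Transplanted samples came from recipients irradiated with 900 cGy and given 8000 LSK cells, taken 3, 4, 5, 6, 8, 10, 13 or 16 weeks later, with 3 libraries per population and week and so 24 per population. Steady-state samples came from untreated mice, with 8 libraries of HSC, 7 of HPC-2 and 8 of HPC-1. All mice were labelled B6.SJL and 8 to 12 weeks of age. The labels do not say how donor cells were told apart from cells of the host, how many cells went into a library, or whether each library had its own mouse. Where it did not, p-values measure only the spread between these samples, which may be technical.

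Megakaryocytes are the large marrow cells that shed platelets. Platelets carry the chemokines Pf4 and Ppbp in their alpha granules together with von Willebrand factor (Vwf), stick to Vwf through the GPIb-IX-V complex (Gp1bb and Gp9 are 2 of its subunits), bind fibrinogen through the integrin alphaIIb-beta3 (Itga2b encodes the alpha chain, CD41), and hold the receptor encoded by Treml1 in the alpha granule membrane. F2r encodes the thrombin receptor PAR1, known from human platelets. Its level here is not read as a sign of mouse platelets. Cavin2 encodes a coat protein of caveolae that is abundant in platelets. In mouse marrow a share of stem cells marked by Vwf is known to favour the platelet lineage, and CD41 rises in stem cells with age.

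After transplant, the mean levels of 2 usual surface marker genes matched the population labels. Slamf1, which encodes CD150, averaged 104.5 ± 62.4 CPM (counts scaled to library size) in transplanted HSC, 64.3 ± 34.6 CPM in transplanted HPC-2 and 3.12 ± 6.26 CPM in transplanted HPC-1 (SD, n = 24 each). Cd48 averaged 28.4 ± 32.7 CPM in HSC, 508 ± 393 CPM in HPC-2 and 1006 ± 421 CPM in HPC-1 of the same libraries. The labels nevertheless give 1 sort gate, without CD48 and with CD150, for all 3 populations. Total counts per library ran from 3551908 to 8492759 (median 5628592), and 3827 to 15697 genes had a count (median 12943). Fewer than 10000 genes had a count in 12 libraries, of which 4 were steady-state HPC-2 and 3 steady-state HSC. In 6 pairs, 12 libraries with different labels had nearly the same counts. In 3 of these pairs a library labelled HPC-2 (steady state replicates 5 and 7, 8 weeks replicate 2) was nearer to the HPC-1 profile. The 3 HSC libraries of 3 weeks, and HSC steady-state replicate 1, were nearer to HPC-2. Labels were kept as given, and the number of calls was also taken without these libraries.

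Pf4 and Ppbp are neighbours. On GRCm38, in the GENCODE M21 annotation, Pf4 (ENSMUSG00000029373) spans chr5:90772435-90773383 and Ppbp (ENSMUSG00000029372) chr5:90768518-90770063, both on the plus strand. Vwf (ENSMUSG00000001930) spans chr6:125546774-125686679, plus strand, Gp9 (ENSMUSG00000030054) chr6:87778072-87779768, plus strand, and Itga2b (ENSMUSG00000034664) chr11:102453297-102470122, minus strand. Treml1 (ENSMUSG00000023993) lies at chr17:48359916-48367176, plus strand, F2r (ENSMUSG00000048376) at chr13:95601803-95618487, minus strand, and Cavin2 (ENSMUSG00000045954) at chr1:51289126-51302960, plus strand. Gp1bb (ENSMUSG00000050761, chr16:18620317-18622403, minus strand) shares 1902 of its 2087 exonic bases with Sept5 on the same strand, so reads of the 2 genes could be split or dropped in counting and the level of Gp1bb is uncertain. Sept5 itself had a median of 0 CPM in each population.

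Promoters are shown because these genes differ together between populations and because megakaryocyte genes are known targets of GATA and ETS factors. RefSeq promoter sequences (GRCm38.p6) matched 8 of the 9 genes. The 250 bases upstream of the start are given 5′ to 3′ on the strand of the gene for 4 genes that stand for the chemokines, the GPIb-IX complex and Cavin2. Capitals mark GATAA, the core of a GATA site, and GGAAG, the core of an ETS site, searched on both strands (TTATC and CTTCC).
Pf4, chr5:90772185-90772434, plus strand: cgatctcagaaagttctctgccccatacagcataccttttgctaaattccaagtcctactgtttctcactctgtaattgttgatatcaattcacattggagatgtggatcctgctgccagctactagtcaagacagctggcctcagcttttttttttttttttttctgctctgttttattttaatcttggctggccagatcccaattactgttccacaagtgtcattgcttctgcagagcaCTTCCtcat
Gp1bb, chr16:18622404-18622653, minus strand: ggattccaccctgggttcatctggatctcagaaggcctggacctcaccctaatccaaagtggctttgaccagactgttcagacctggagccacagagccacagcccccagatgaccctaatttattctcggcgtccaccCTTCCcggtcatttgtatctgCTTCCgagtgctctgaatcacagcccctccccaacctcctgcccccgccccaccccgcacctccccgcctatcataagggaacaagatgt
Gp9, chr6:87777820-87778069, plus strand: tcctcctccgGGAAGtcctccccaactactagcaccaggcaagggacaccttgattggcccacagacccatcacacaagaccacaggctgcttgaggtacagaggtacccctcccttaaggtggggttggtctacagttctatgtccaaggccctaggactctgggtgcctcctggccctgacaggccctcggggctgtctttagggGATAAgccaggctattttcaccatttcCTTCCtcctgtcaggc
Cavin2, chr1:51288876-51289125, plus strand: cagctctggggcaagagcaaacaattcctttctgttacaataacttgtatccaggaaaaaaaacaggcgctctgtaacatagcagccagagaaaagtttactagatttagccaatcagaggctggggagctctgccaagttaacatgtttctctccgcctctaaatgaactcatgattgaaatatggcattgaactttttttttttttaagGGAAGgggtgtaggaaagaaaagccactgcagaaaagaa
GGAAG was found in 7 of the 8 promoters (all but F2r), and it stands in 64.1% of 32851 mouse promoters of the same length. GATAA was found in Gp9 alone, starting 43 bases before the start site, and stands in 22.6% of promoters. These are matches of letters in a short window and say nothing of binding.

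After transplant all 9 genes were higher in HSC than in HPC-1, and all 9 were higher in HPC-2 than in HPC-1. In these 2 comparisons 3.73% and 2.08% of the 14717 genes tested were called higher, where a gene is called at an adjusted p under 0.05 in the edgeR quasi-likelihood test. The median log2 change of the 9 genes was 6.79 for HSC over HPC-1 and 5.37 for HPC-2 over HPC-1, beside -0.08 and -0.06 over all genes tested. The 9 genes were chosen as genes expressed in stem cells, with earlier results of these data known. Vwf, Gp1bb, Treml1 and Cavin2 were at or near 0 in HPC-1 and passed the low-count filter through HSC and HPC-2. The contrast with all genes is therefore a description and no independent support. Every call held whichever of the 95 libraries was left out. In bulk samples, fewer cells of a type and less RNA per cell cannot be told apart.

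Of the chemokine genes, Pf4 had the higher median level per kilobase of exon in all 3 populations. Pf4 was at 337 to 4130 CPM (median 1291) in transplanted HSC, 22.1 to 1787 CPM (median 567) in transplanted HPC-2 and 1.62 to 59.6 CPM (median 13.0) in transplanted HPC-1. Every HSC library lay above every HPC-1 library, and 22 of 24 HPC-2 libraries did, the lowest being the 8-week replicate with the HPC-1 profile. The log2 change was 6.36 (SE 0.49, adjusted p = 5.27e-18) for HSC over HPC-1 and 5.37 (SE 0.47, adjusted p = 2.91e-15) for HPC-2 over HPC-1 (edgeR). Ppbp, which encodes the precursor of the chemokine NAP-2, was at 0 to 128 CPM (median 38.3) in HSC, 0 to 54.9 CPM (median 6.44) in HPC-2 and 0 to 18.2 CPM (median 0) in HPC-1. It had a count in 21 HSC, 17 HPC-2 and 8 HPC-1 libraries of 24 each, so that the groups overlapped. Its log2 change was 6.79 (SE 1.18, adjusted p = 1.57e-05) for HSC and 5.12 (SE 1.08, adjusted p = 0.000552) for HPC-2, both over HPC-1. With groups by week the second was not called (adjusted p = 1).

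The genes of Vwf and of 2 subunits of its receptor had counts in most HSC and HPC-2 libraries after transplant, and Vwf and Gp1bb, but not Gp9, had a count in few HPC-1 libraries. Vwf was at 0 to 141 CPM (median 50.6) in transplanted HSC, 0 to 52.0 CPM (median 16.7) in HPC-2 and 0 to 3.92 CPM (median 0) in HPC-1. It exceeded the highest HPC-1 value in 22 of 24 HSC and 19 of 24 HPC-2 libraries. Gp1bb was at 0 to 283 CPM (median 122) in HSC, 0 to 155 CPM (median 102) in HPC-2 and 0 to 3.04 CPM (median 0) in HPC-1. All but 1 HSC library and all but 2 HPC-2 libraries lay above HPC-1. Gp9 was at 0 to 226 CPM (median 109) in HSC, 0 to 167 CPM (median 68.0) in HPC-2 and 0 to 27.4 CPM (median 8.63) in HPC-1, where 20 of 24 libraries had a count. Gp9 was thus seen in HPC-1 although Gp1bb, whose protein sits in the same complex, was at or near 0 there. The log2 changes over HPC-1 were 8.04 (SE 1.04) for Vwf, 9.38 (SE 0.94) for Gp1bb and 3.45 (SE 0.65) for Gp9 in HSC, with adjusted p = 1.67e-08, 6.71e-13 and 7.17e-05 (edgeR). In HPC-2 they were 6.42 (SE 0.95), 8.67 (SE 0.92) and 2.77 (SE 0.63), with adjusted p = 2.34e-06, 1.08e-11 and 0.00133.

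Treml1 and Cavin2 were close to absent from HPC-1. Treml1 was at 0 to 121 CPM (median 36.5) in transplanted HSC, 0 to 84.0 CPM (median 27.0) in HPC-2 and 0 to 3.13 CPM in HPC-1, with a count in 5 of 24 HPC-1 libraries. Cavin2 was at 0 to 413 CPM (median 120) in HSC, 0 to 151 CPM (median 47.9) in HPC-2 and 0 to 1.79 CPM in HPC-1, with a count in 2 of 24 HPC-1 libraries. For Cavin2, 23 of 24 HSC and 23 of 24 HPC-2 libraries lay above every HPC-1 library, and without the near-identical libraries all 20 remaining HPC-2 libraries did. The log2 changes over HPC-1 were 8.78 (SE 1.05) for Treml1 and 11.18 (SE 0.92) for Cavin2 in HSC (adjusted p = 1.16e-09 and 4.3e-16), and 7.96 (SE 1.01) and 9.69 (SE 0.88) in HPC-2 (adjusted p = 1.83e-08 and 1.01e-13).

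The integrin and thrombin receptor genes had counts in most HPC-1 libraries too. Itga2b was at 0.163 to 115 CPM (median 25.1) in transplanted HSC, 0 to 339 CPM (median 47.6) in HPC-2 and 0 to 24.4 CPM (median 7.05) in HPC-1. F2r was at 4.28 to 529 CPM (median 155) in HSC, 2.28 to 570 CPM (median 208) in HPC-2 and 1.78 to 157 CPM (median 32.6) in HPC-1. The groups overlapped for both, with 13 HSC libraries above the HPC-1 maximum for Itga2b and 12 for F2r. The log2 changes over HPC-1 were 2.12 (SE 0.59, adjusted p = 0.00958) and 2.19 (SE 0.47, adjusted p = 0.000426) in HSC, and 3.25 (SE 0.62, adjusted p = 0.000168) and 2.67 (SE 0.48, adjusted p = 5.54e-05) in HPC-2. The HSC call for Itga2b was lost with a block for every 3 description numbers (adjusted p = 0.0707) and without the libraries nearer to another population (adjusted p = 0.0568).

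**Figure D1:**
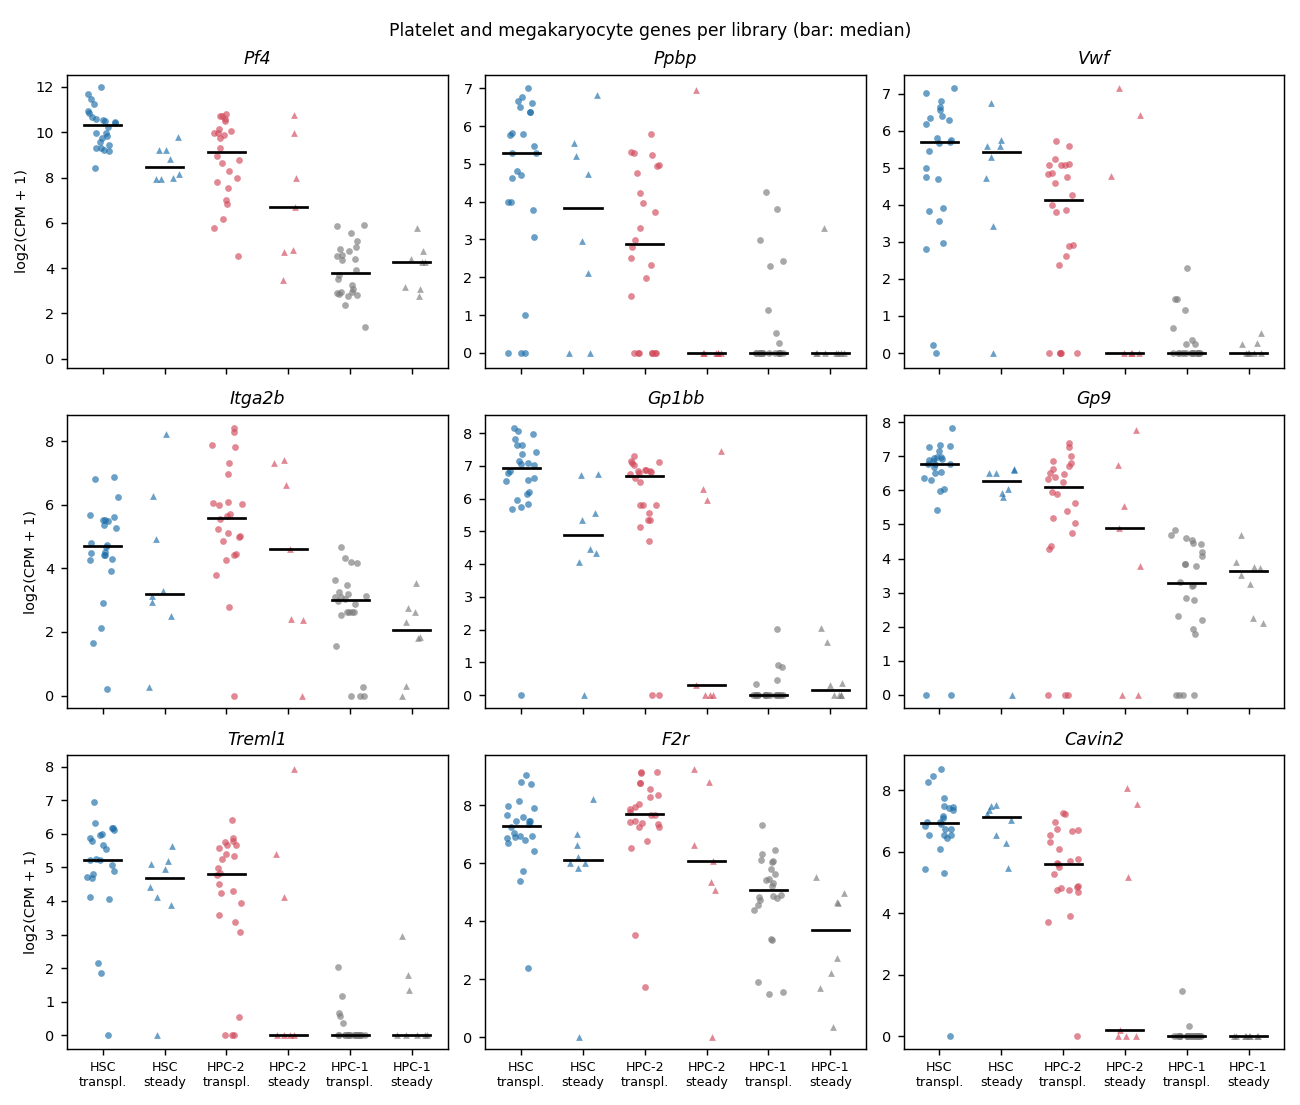
Level of the 9 genes in every library, as log2(CPM + 1), for HSC, HPC-2 and HPC-1, with transplanted libraries (transpl., circles, n = 24 each) left of steady-state libraries (steady, triangles, n = 8, 7 and 8), each panel with its own scale. Bars are medians. HPC-1 lies near 0 for Vwf, Gp1bb, Treml1 and Cavin2 and well above 0 for Pf4, Gp9, F2r and Itga2b.

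HSC and HPC-2 could not be separated by these genes after transplant. None of the 9 was called between them (7.08% of all genes were called in either direction), and 4 had an unadjusted p under 0.05, beside 18.3% of all genes. Pf4 was 1.00 log2 units higher in HSC (95% interval 0.27 to 1.72, adjusted p = 0.0893), Cavin2 1.49 (0.45 to 2.54, adjusted p = 0.075) and Vwf 1.62 (0.22 to 3.03, adjusted p = 0.185), while Itga2b was 1.14 lower (-2.25 to -0.02, adjusted p = 0.269), all by edgeR. The intervals of the other 5 genes included 0 and reached from -1.35 for F2r to 3.38 for Ppbp. A difference of 2-fold or more was therefore not excluded for any of them. Other settings gave 0 to 3 calls, the 3 being Pf4, Vwf and Cavin2 with limma voom and sample weights (adjusted p = 0.000556, 0.00165 and 5.42e-05).

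**Figure D2:**
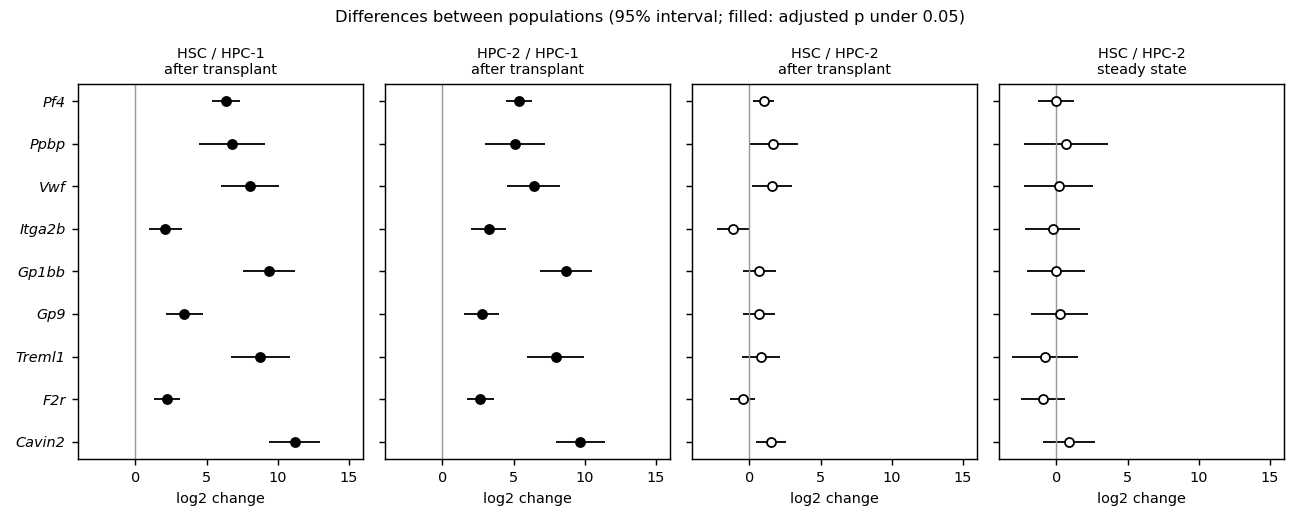
Log2 change of each gene in 4 comparisons of populations (the first named over the second), with 95% intervals from the edgeR fit and filled points for an adjusted p under 0.05. After transplant all 9 genes lie right of 0 in both comparisons with HPC-1, and all points of HSC over HPC-2 are open.

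At steady state the fitted differences to HPC-1 were positive for all 9 genes, with fewer calls. In HPC-2 over HPC-1 the sign of Ppbp rested on HPC-2 replicate 3, the 1 HPC-2 library with a count (log2 change 3.99, against -5.68 without it), and that of Gp9 turned with voom (2.39, against -1.09). In HSC over HPC-1, 5 genes were called higher, where 0.802% of all genes were. Cavin2 was at 43.6 to 182 CPM (median 139) in 8 HSC libraries, against no count in any of the 8 HPC-1 libraries, so that its mean in HSC was at least 1460-fold higher than 3 counts over the HPC-1 group would give (adjusted p = 5.07e-08). Pf4 was at 242 to 875 CPM (median 364) in HSC, against 5.73 to 53.9 CPM (median 18.4) in HPC-1, a log2 change of 4.49 (SE 0.72, adjusted p = 2.9e-05). For these 2 genes the groups did not overlap. How many of all genes separate in this way, here or after transplant, was not counted. Vwf (8.27, SE 1.67, adjusted p = 0.00202) and Gp1bb (5.89, SE 1.26, adjusted p = 0.00394) were also called. Itga2b (3.81, SE 1.07, adjusted p = 0.036) rested on HSC replicate 1, at 298 CPM where the other 7 libraries were at 0.209 to 77.5 CPM, and without it was not called (adjusted p = 0.309). That library was 1 of a near-identical pair with HPC-2 at 13 weeks.

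In HPC-2 over HPC-1 at steady state 6 genes were called higher (0.272% of all genes were), but the HPC-2 libraries split. Pf4 was at 104, 249, 986, 1755, 25.5, 27.1 and 10.3 CPM in HPC-2 replicates 1 to 7. Replicates 5 and 7 carried the HPC-1 profile and replicates 1, 3, 4 and 6 had few genes with a count. Cavin2 was at 35.4, 184 and 267 CPM in replicates 2, 3 and 4 and at 0 to 0.152 CPM in the other 4. The calls were Pf4 (4.52, SE 0.73, adjusted p = 8.97e-05), Vwf (8.10, SE 1.67, adjusted p = 0.0107), Itga2b (4.07, SE 1.10, adjusted p = 0.049), Gp1bb (5.91, SE 1.27, adjusted p = 0.0173), F2r (3.45, SE 0.84, adjusted p = 0.0338) and Cavin2 (11.65, SE 1.56, adjusted p = 1.41e-06), and Treml1 was just above the threshold (5.01, SE 1.38, adjusted p = 0.0508). The number called ran from 2 to 9 over other settings and from 3 to 7 when 1 library was left out. Without low libraries 2 were called, without the near-identical libraries 8 and without those nearer to another population 9. The last 2 settings drop replicates 5 and 7, which carried the HPC-1 profile. A rise in calls there follows in part from how these libraries were picked. Of the 6, Cavin2 alone was called in all 10 other settings, with adjusted p up to 0.0383. Between HSC and HPC-2 at steady state none of the 9 was called by edgeR, where 8.66% of all genes were called in either direction. None had an unadjusted p under 0.05, beside 23.2% of all genes. The intervals were wide, as for Pf4 (log2 change -0.03, 95% interval -1.29 to 1.24).

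**Figure D3:**
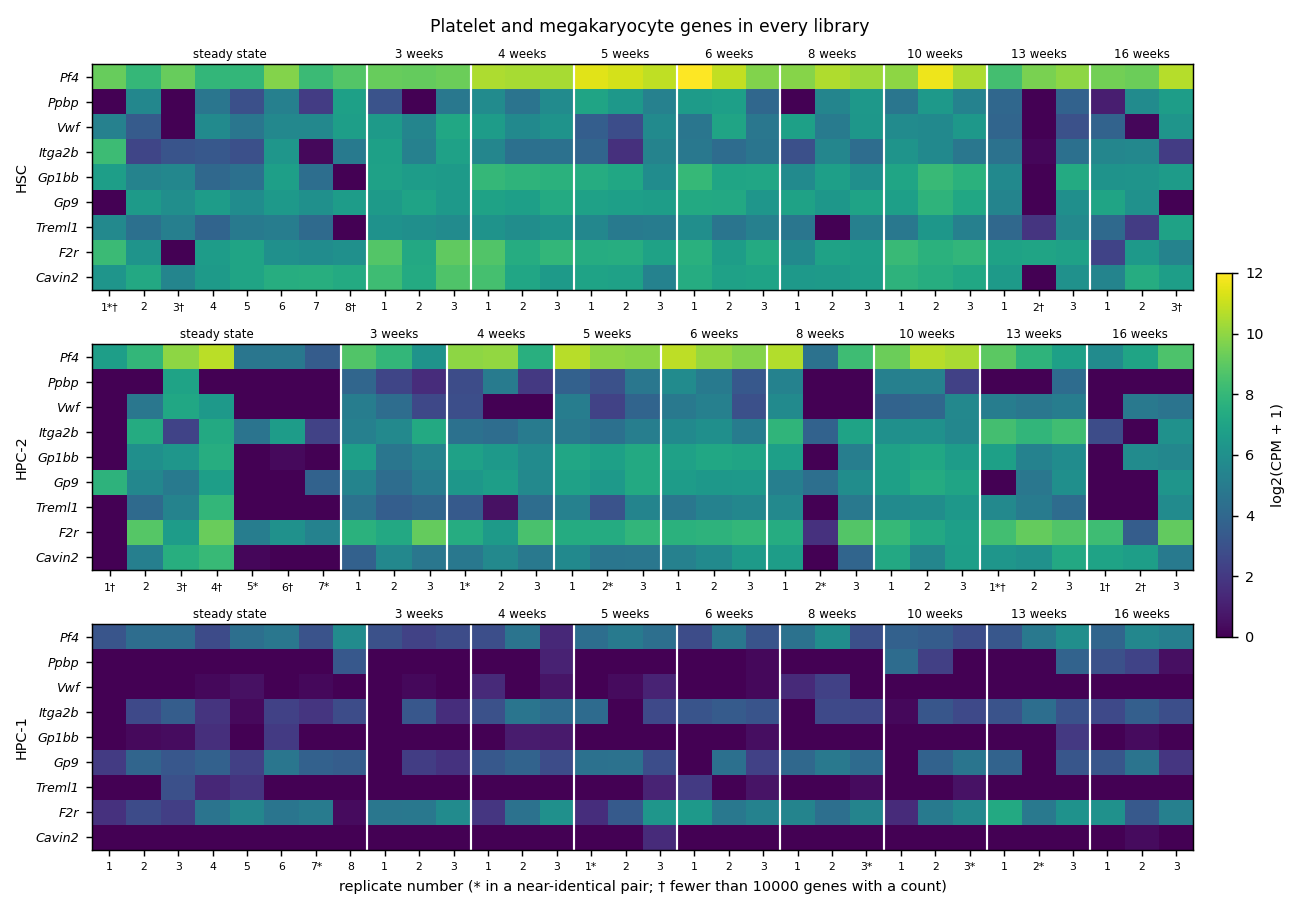
Level of each gene (rows) in every library (columns) as log2(CPM + 1), for HSC (top), HPC-2 (middle) and HPC-1 (bottom), ordered from steady state to 16 weeks. Steady-state HPC-2 replicates 1, 5, 6 and 7, HPC-2 8 weeks replicate 2 and HPC-2 16 weeks replicate 1 are dark for most genes. Of these, steady-state replicates 1 and 6 and the 16-week library had few genes with a count. HSC 13 weeks replicate 2 is dark for Ppbp, Vwf, Itga2b, Gp1bb, Gp9 and Cavin2.

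Seen library by library, HSC usually expressed the whole set. All 9 genes had a count in 19 of 24 transplanted and 5 of 8 steady-state HSC libraries, in 15 of 24 transplanted and 1 of 7 steady-state HPC-2 libraries, and in 0 of 24 transplanted and 0 of 8 steady-state HPC-1 libraries. The summed level of the 9 genes was 706 to 5126 CPM (median 2059) in transplanted HSC and 644 to 1506 CPM (median 739) in steady-state HSC. It was 56.9 to 2400 CPM (median 1428) and 66.5 to 3399 CPM (median 322) in transplanted and steady-state HPC-2. In HPC-1 it was 26.7 to 187 CPM (median 81.6) after transplant and 13.5 to 82.3 CPM (median 50.5) at steady state. The HSC library with the fewest of the 9 genes had 4, and the HPC-1 library with the most had 8.

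Transplanted and steady-state cells differed in none of the 9 genes at an adjusted p under 0.05. In HSC 1.92% of all genes were called in either direction, in HPC-2 4.69% and in HPC-1 0.163%. In HSC, 1 of the 9 genes had an unadjusted p under 0.05, in HPC-2 none and in HPC-1 2. Over all genes 10.3%, 17.3% and 5.08% had such a p in HSC, HPC-2 and HPC-1. The median log2 change of the 9 genes was 0.59 in HSC, 0.16 in HPC-2 and -0.23 in HPC-1, beside -0.12, 0.28 and -0.02 over all genes. With size factors of the RLE kind in place of TMM the median of all genes moved to -0.24, 0.09 and 0.18.

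Pf4 came nearest in HSC. It was at 337 to 4130 CPM (median 1291) after transplant, against 242 to 875 CPM (median 364) at steady state, a log2 change of 1.59 (SE 0.56, 95% interval 0.48 to 2.70, unadjusted p = 0.006, adjusted p = 0.137, edgeR). The groups overlapped between 337 and 875 CPM. With limma voom and sample weights it was called (adjusted p = 0.018), while the adjusted p was 0.0714 to 0.695 over the other 10 settings and 0.113 to 0.249 over the left-out libraries. Gp1bb was at 0 to 283 CPM (median 122) after transplant, against 0 to 108 CPM (median 30.2) at steady state (1.60, SE 0.91, adjusted p = 0.621). Of the other genes F2r had a log2 change of 0.91 (SE 0.65) and Itga2b of -0.65 (SE 0.76), both with adjusted p of 0.817 or more.

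In HPC-1, Treml1 had a count in 5 of 24 transplanted libraries, at up to 3.13 CPM, and in 3 of 8 steady-state libraries, at up to 6.71 CPM (log2 change -3.76, SE 0.97, adjusted p = 0.0699). It was called in 6 of 10 other settings and lost its nearness to the threshold without steady-state replicate 3 (adjusted p = 0.471), so the value rested on a few counts. Cavin2 had no count in steady-state HPC-1 and 11 counts in all over 24 transplanted libraries, and its change could not be estimated. In HPC-2 the log2 changes ran from -1.09 (Vwf, 95% interval -2.97 to 0.80) to 0.87 (Gp1bb, -0.93 to 2.66). The difference of the transplant effect between HSC and HPC-1 was not called for any of the 9 genes (0% of all genes were called), the smallest adjusted p being that of Treml1 (log2 4.57, SE 1.40, adjusted p = 0.232). Against HPC-2, where 2.72% of all genes were called, it was that of Pf4 (1.03, SE 0.74, adjusted p = 0.689). For 3 genes the difference to HPC-1 had an unadjusted p under 0.05 (Pf4, Gp1bb and Treml1), and for none the difference to HPC-2. Over all genes 5.53% and 12.8% had such a p.

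**Figure D4:**
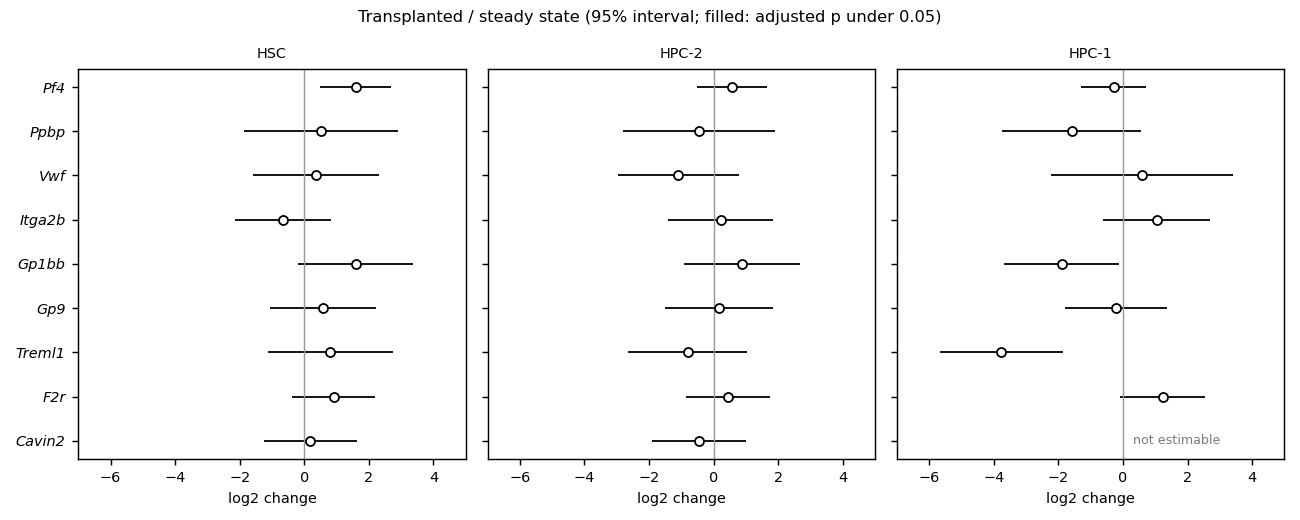
Log2 change of each gene in transplanted over steady-state libraries of HSC, HPC-2 and HPC-1, with 95% intervals from the edgeR fit, where no point is filled because no adjusted p is under 0.05. Pf4 in HSC lies at 1.59 with an interval above 0, and Cavin2 in HPC-1 could not be estimated.

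Week by week, Pf4 in HSC was lowest at steady state and highest at 5 and 6 weeks. Each week had its own set of 12 consecutive description numbers, which also held steady-state libraries. Differences between weeks and between such sets therefore cannot be told apart. At 3 weeks the HSC libraries were at 588.5, 581.1 and 625.4 CPM, within the steady-state range of 242 to 875 CPM. At 4 weeks they were at 1471, 1391 and 1372 CPM, and at 5 weeks at 2826, 2428 and 1858 CPM, so that all 6 lay above every steady-state library. At 6 weeks they spread over 4130, 1931 and 849 CPM, at 8 weeks over 897, 1511 and 1210 CPM and at 10 weeks over 990, 3288 and 1451 CPM. At 13 weeks they were at 337, 758 and 1001 CPM and at 16 weeks at 700, 637 and 1639 CPM, again overlapping with steady state. Against steady state the log2 change was 1.18 (SE 0.67, adjusted p = 0.527) at 3 and 4 weeks, 2.15 (SE 0.64, adjusted p = 0.135) at 5 to 8 weeks and 1.44 (SE 0.62, adjusted p = 0.411) at 10 to 16 weeks, where 0.0272%, 0.00679% and 0% of all genes were called in either direction. Their unadjusted p was 0.0805, 0.00116 and 0.0232. At 5 to 8 weeks Pf4 was called with each population fitted alone (2.17, adjusted p = 0.0204) and with limma voom (2.40, adjusted p = 0.00462), and over the other 9 settings run its adjusted p was 0.0702 to 0.842.

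HPC-2 had a like order of medians for Pf4, with a wider spread. The median was 104 CPM at steady state, 249 CPM at 3 weeks, 1007 CPM at 4 weeks, 993 CPM at 5 weeks, 1139 CPM at 6 weeks, 309 CPM at 8 weeks, 1430 CPM at 10 weeks, 223 CPM at 13 weeks and 129 CPM at 16 weeks. The 7 steady-state libraries (10.3 to 1755 CPM) covered nearly all of these values. In HPC-1 the medians stayed between 5.91 CPM at 3 weeks and 35.5 CPM at 16 weeks. The comparisons of periods with steady state within a population share their steady-state libraries.

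Other genes peaked at other times in HSC, without any call between periods. Cavin2 was highest at 3 weeks, at 309, 162 and 413 CPM, and lowest at 13 weeks, at 92.4, 0 and 66.3 CPM. F2r was highest at 3 weeks, at 447, 149 and 529 CPM, and lowest at 16 weeks, at 4.28, 85.5 and 40.7 CPM. Vwf was highest at 3 weeks too, at 92.9, 42.6 and 141 CPM, with the lowest values at 13 weeks, at 13.9, 0 and 6.80 CPM. In each of these 3 the highest and the lowest week did not overlap, but weeks were picked for their values and no test was made of them. How many of all genes have such a gap was not counted. The values of 0 at 13 weeks came from replicate 2, which had 6628 genes with a count. At 16 weeks replicate 3 had 8873. The 3-week HSC libraries were also those nearer to the HPC-2 profile, and the part of this in the levels was not tested. Gp1bb was highest at 4 weeks (250, 224 and 200 CPM) and Treml1 at 4 weeks (70.7, 58.2 and 71.5 CPM). Ppbp was highest at 6 weeks (96.2, 109 and 15.0 CPM). The week of the highest median thus differed between these genes.

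Itga2b in HPC-2 stood apart at 13 weeks, at 339, 237 and 314 CPM, where the highest HSC library of any week was at 115 CPM. At 16 weeks the HPC-2 libraries were at 5.83, 0 and 66.5 CPM, of which the first 2 had few genes with a count. The first 13-week library was the near-identical partner of HSC steady-state replicate 1.

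Between late (10 to 16 weeks) and early (3 and 4 weeks) libraries none of the 9 genes was called in HSC, HPC-2 or HPC-1 by edgeR. Over all genes 0%, 0.0136% and 0% were called. The number of the 9 with an unadjusted p under 0.05 was 0 in HSC, 0 in HPC-2 and 3 in HPC-1. The share of all genes with such a p was 13.9%, 9.7% and 3.91%. Of the settings tried DESeq2 alone called any (Vwf, Treml1 and Cavin2 in HPC-1, where few libraries had a count). In HSC the log2 change of Pf4 was 0.26 (SE 0.66), of Vwf -1.32 (SE 1.23), of F2r -1.28 (SE 0.78) and of Cavin2 -1.12 (SE 0.92). These comparisons rest on 9 late and 6 early libraries. In the 9 comparisons of 1 period with steady state in 1 population, none of the 9 genes was called by edgeR in the 12-group fit, where at most 4.78% of all genes were called (HPC-2 at 10 to 16 weeks).

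**Figure D5:**
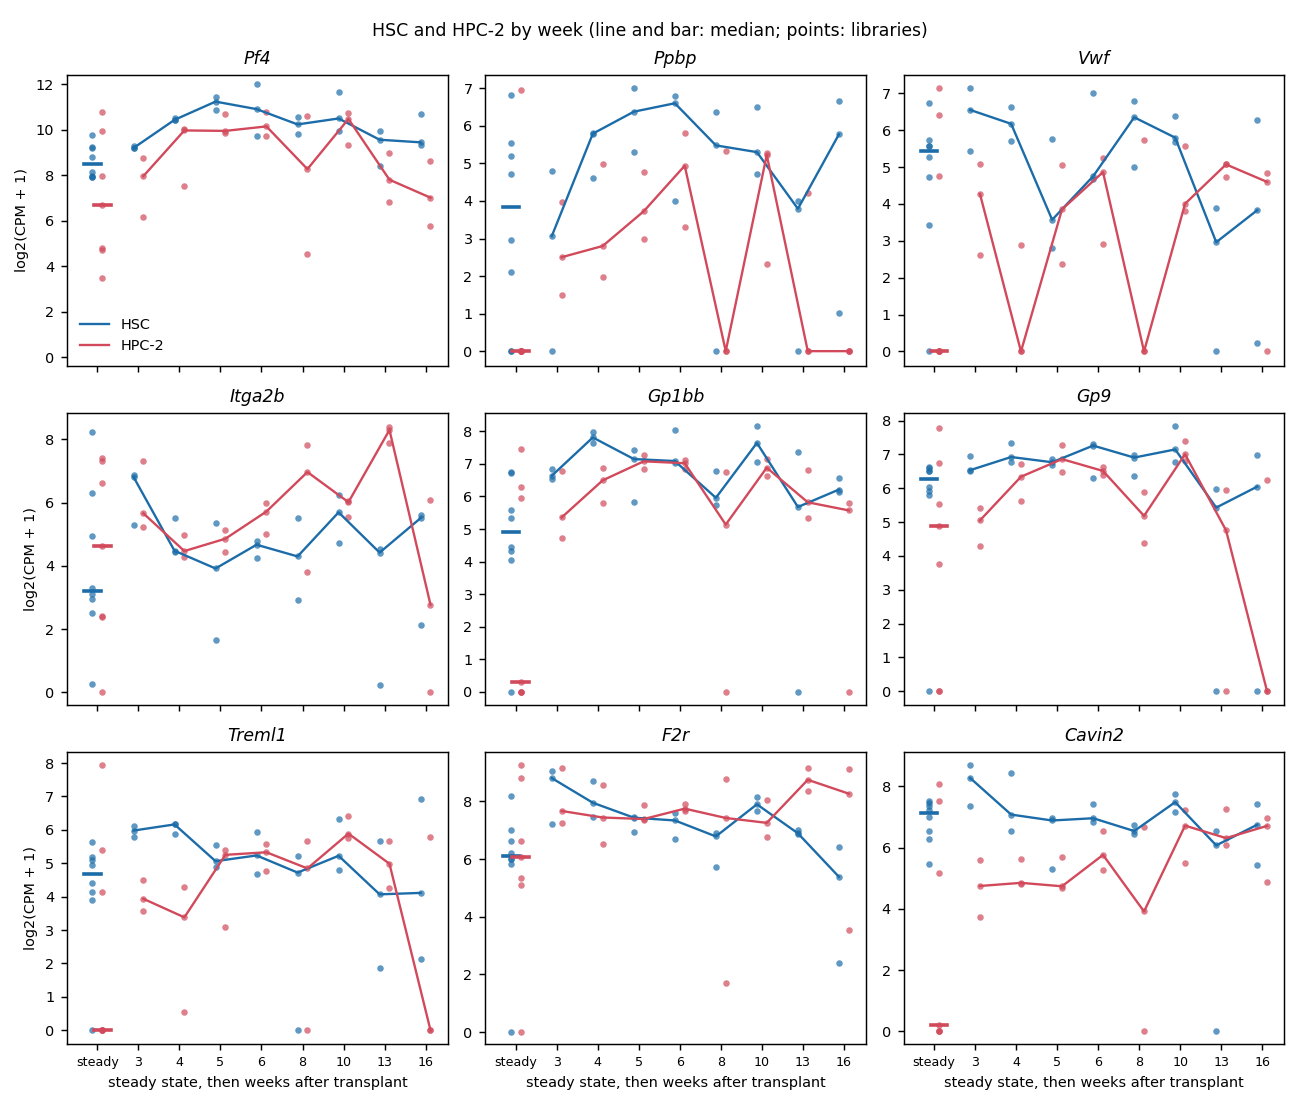
Level of the 9 genes in HSC and HPC-2 as log2(CPM + 1), with steady-state libraries at the left and then 3 to 16 weeks after transplant, each panel with its own scale. Points are libraries, bars and lines are medians. Pf4 of HSC has its highest median at 5 weeks, while Cavin2, F2r and Vwf of HSC have theirs at 3 weeks.

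Lengths here are those of all annotated exons of a gene, not of a single transcript. By this measure Pf4 was the highest of the 9 genes in every population and state and Gp9 was the second. Per kilobase of exon the median of Pf4 was 1790 CPM in transplanted HSC, 787 CPM in HPC-2 and 18.0 CPM in HPC-1, and that of Gp9 was 123, 77.2 and 9.79 CPM. In transplanted HSC the order went on with Gp1bb (58.6), F2r (46.5), Cavin2 (39.4), Ppbp (35.4), Treml1 (26.1), Itga2b (4.59) and Vwf (3.15 CPM per kilobase). The ranges of neighbours in this order overlapped, except those of Pf4 and Gp9. The place of Gp1bb is uncertain because it shares exonic bases with Sept5. Ppbp, which stands beside Pf4 on chromosome 5, thus had a far lower level per length than Pf4.

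Correlations over all libraries span populations that differ in level. Over all 95 libraries Pearson's r of log2(CPM + 1) was 0.90 for Pf4 and Gp1bb, 0.90 for Gp1bb and Cavin2 and 0.89 for Gp1bb and Treml1, but 0.27 for Ppbp and Itga2b. Within the 32 HSC libraries the highest value was 0.67 (Gp1bb and Treml1), Pf4 and Gp1bb had 0.56, and Pf4 and Cavin2 had 0.03. Within the 31 HPC-2 libraries Pf4 and Gp1bb had 0.88, and within the 32 HPC-1 libraries the highest value was 0.29 (Pf4 and Gp9). The libraries differ in depth and in how many genes they detected, so these are descriptions. Outside the 9 genes, and over all 95 libraries only, Cd9, which encodes a tetraspanin of platelets and stem cells, was among the 3 nearest genes of 7 members, with r of 0.90 for Pf4, 0.83 for Gp1bb and 0.69 for Gp9. Nt5c3 (0.84) and Nupr1 (0.79) were the next nearest to Pf4. The nearest to F2r was Tuba8 (0.80), and the nearest to Itga2b were Mfsd2b (0.67), Slc14a1 (0.67) and Unc119 (0.66).

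Other genes of the platelet lineage moved with them in part. Of 65 further megakaryocyte genes 59 were tested, and after transplant 24 were called higher and 1 lower in HSC over HPC-1. In HPC-2 over HPC-1 20 were called higher and 1 lower. Over all 14717 genes tested, 549 were called higher and 763 lower in HSC, and 306 and 835 in HPC-2. The further megakaryocyte genes were also chosen with earlier results of these data known. Their median log2 change was 1.26 and 0.71, smaller than that of the 9 genes. In HSC over HPC-1 the calls with the smallest p were Gng11, a G protein subunit (3.01, SE 0.29, adjusted p = 1.21e-13), Cd9 (1.92, SE 0.19, adjusted p = 1.21e-13), Rap1b, a small GTPase of integrin activation (1.81, SE 0.25, adjusted p = 4.57e-08), and Mmrn1, which encodes multimerin of the alpha granule (4.84, SE 0.72, adjusted p = 5.55e-07). In HPC-2 over HPC-1 they were the transcription factor gene Gata2 (2.45, SE 0.30, adjusted p = 2.3e-09), Cd9 (1.32, SE 0.18, adjusted p = 1.81e-07), Gp5, a further subunit of the GPIb complex (4.88, SE 0.81, adjusted p = 1.31e-05), and F2rl2, a thrombin receptor gene (4.22, SE 0.87, adjusted p = 0.000439). The fibrinogen receptor partner Itgb3 was called higher in both, at 3.62 (SE 0.89) and 3.40 (SE 0.88). The exceptions were F13a1, the factor XIII A chain, lower in HSC (-3.73, SE 1.23, adjusted p = 0.04), and Pdgfa, lower in HPC-2 (-4.49, SE 1.08, adjusted p = 0.00328).

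By role, 5 of 10 tested adhesion receptor genes, 3 of 8 agonist receptor genes, 6 of 14 granule genes, 4 of 12 transcription factor genes and 6 of 10 signalling genes were called higher in HSC over HPC-1. Of all genes 3.73% were. None of the 5 tested genes of the cytoskeleton and proplatelets was called, and their median was -0.50. Between HSC and HPC-2 after transplant 9 of the 59 were called higher in HSC, among them Gng11 (1.89, SE 0.27, adjusted p = 1.86e-06), Clu, whose product clusterin is a granule protein (4.90, SE 1.02, adjusted p = 0.000636), and Pdgfb (4.65, SE 1.12, adjusted p = 0.00415). Gata2 (-1.19, SE 0.28, adjusted p = 0.0028), Flna and Cd36 were called lower in HSC. Of all 14717 genes tested, 634 were called higher and 408 lower in HSC. In transplanted over steady-state cells Cd36 was called lower in HSC (-4.80, SE 1.37, adjusted p = 0.0421) and the ADP receptor gene P2ry12 lower in HPC-1 (-6.35, SE 1.38, adjusted p = 0.0281). In HPC-2 4 were called higher, namely Sh3bgrl2, Thbs1, F13a1 and Bcl2l1 (adjusted p = 0.0373, 0.0418, 0.0431 and 0.0493). Over all genes, 267 were called lower in HSC, 23 lower in HPC-1 and 338 higher in HPC-2.

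After transplant, markers of mature megakaryocytes and platelets had a low summed level beside that of the 9 genes. Pf4 was a large part of the latter in HSC and HPC-2. At steady state the 2 sums had medians of 62.0 and 739 CPM in HSC. They were 135 and 322 CPM in HPC-2 and 16.1 and 50.5 CPM in HPC-1. Over 8 such markers (Gp1ba, Gp5, Gp6, Tubb1, Clec1b, Alox12, Itgb3 and P2ry12) the summed level was 0.783 to 234 CPM (median 78.6) in transplanted HSC, 0 to 247 CPM (median 84.8) in HPC-2 and 0 to 17.2 CPM (median 5.10) in HPC-1. The 2 most restricted were at or near 0. Gp6, the collagen receptor of platelets, had no count in any HSC or HPC-1 library and a count in 1 of 24 transplanted HPC-2 libraries. Tubb1, the platelet tubulin, had counts in 2 of 24 transplanted HSC, 3 of 24 transplanted HPC-2 and 0 of 24 transplanted HPC-1 libraries. Of the 6 tested markers, 5 were called higher in HSC and 3 in HPC-2 over HPC-1, beside 3.73% and 2.08% of all genes. Erythroid markers, whose genes share GATA1 with the megakaryocyte lineage, were summed at 35.6 to 2022 CPM (median 116) in HSC, 81.9 to 6819 CPM (median 2456) in HPC-2 and 104 to 3643 CPM (median 576) in HPC-1. Beside the levels of the 9 genes in HPC-2 these markers thus stood higher than in HSC, and their part in the result was not tested. Of the lymphoid and multipotent progenitor markers, 6 of 6 were called lower in HSC and 4 of 6 lower in HPC-2, both over HPC-1. Of all 14717 genes tested, 763 and 835 were called lower. Cd48, which was also used to check the labels, is 1 of these 6 markers, so its level is no independent result.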

How the data were processed

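Gene counts as the authors deposited them were used, as whole numbers per gene and library with no normalization. The submitters' processing notes name HISAT2 2.0.5, Trimmomatic 0.36, Picard, featureCounts and GRCm38 (mm10). The strand setting and annotation release are not given in the sources used here. Populations and weeks follow the sample titles. The 2 titles with "10k" were read as 10 weeks, and 1 HPC-2 library titled 3 weeks carries an untreated label and was kept at 3 weeks.

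From the counts, 14717 genes passed edgeR's filterByExpr and were fitted in 12 groups (population by steady state, 3 and 4, 5 to 8 or 10 to 16 weeks) with TMM scaling and the quasi-likelihood F test (R 4.3.3, edgeR 4.0.16). P-values were adjusted by Benjamini-Hochberg within a comparison, with calls under 0.05. CPM use TMM-scaled library sizes, and plots and correlations log2(CPM + 1). Standard errors were derived from the F statistic and are approximate. The test was tried on simulated data. Libraries held 3551908 to 8492759 counts, and the spread between libraries was the error used in every test. The members and lists were chosen with earlier results of these data known. Beyond the 9 genes, up to 4 called genes of a list with the smallest p, and the 3 genes of highest correlation with a member, are named by rule, and others named were chosen after their values were seen. Alternatives used limma 3.58.1, DESeq2 1.42.0, RLE scaling, other filters, blocks and groups, and left-out libraries.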

Additional observations from a re-analysis of the deposited data

Results flagged for a closer look

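Of 104 gene-by-group sets of 6 to 9 libraries, 31 had a library that stood far from the rest on the log2(CPM + 1) scale by Dixon's ratio. For independent sets of normal values chance gives about 1 in 20. That rate does not hold here, since a set with a count in 1 library alone is always flagged. The sets also share libraries. Many of these libraries were ones already named for few genes or another profile.

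HPC-2 8 weeks replicate 2, whose profile was nearer to HPC-1, was far below the rest of HPC-2 at 5 to 8 weeks in 5 genes. It was at 22.1 CPM for Pf4 (the others 309 to 1790), 2.28 CPM for F2r (the others 164 to 435) and 0 CPM for Gp1bb, Treml1 and Cavin2.

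In HSC, replicate 2 of 13 weeks was at 0 CPM for Gp1bb and Cavin2, where the other late libraries were at 50.1 to 283 CPM and 41.9 to 213 CPM. At steady state HSC replicate 8 was at 0 CPM for Gp1bb and Treml1, replicate 1 at 0 CPM for Gp9 and replicate 3 at 0 CPM for F2r. These 4 libraries each had fewer than 10000 genes with a count. Other low values in HSC were 0 CPM for Ppbp and 51.6 CPM for F2r in 8 weeks replicate 1, 0 CPM for Treml1 in 8 weeks replicate 2, 38.4 CPM for Cavin2 in 5 weeks replicate 3 and 4.28 CPM for F2r in 16 weeks replicate 1.

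In HPC-2, Ppbp was at 123 CPM in steady-state replicate 3 and at 0 in the other 6. Low values were 0 CPM for Vwf and Gp1bb in 16 weeks replicate 1, 10.5 CPM for F2r in 16 weeks replicate 2 and 0.464 CPM for Treml1 in 4 weeks replicate 2.

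In HPC-1 most far values were single libraries with a count where the rest had none or nearly none. They were 8.85 CPM (steady-state replicate 8), 1.21 CPM (4 weeks replicate 3) and 0.19 CPM (6 weeks replicate 3) for Ppbp, 0.379 CPM (6 weeks replicate 3) and 3.04 CPM (13 weeks replicate 3) for Gp1bb, 0.495 CPM (10 weeks replicate 3) for Treml1, and 1.80 CPM (5 weeks replicate 3) and 0.273 CPM (16 weeks replicate 2) for Cavin2. Low values were 0.198 CPM for Itga2b in 10 weeks replicate 1 and 2.77 CPM for F2r in 4 weeks replicate 1.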

How the results depend on the processing

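Of 12 other settings, 10 could be run between populations. Over these, the 9 calls of HSC and of HPC-2 over HPC-1 after transplant stayed at 8 to 9 (9 to 9 with a library left out). At steady state the count for HSC over HPC-1 was 5, against 8 with limma voom, 8 with DESeq2 and 4 to 6 with a library left out. For HPC-2 over HPC-1 it was 6, against 2 with the replicate block by 3 description numbers, 2 without low libraries, 3 with voom, 7 with RLE scaling, 8 without near-identical libraries, 9 without libraries nearer to another population, 9 with DESeq2 and 3 to 7 with a library left out. For HSC over HPC-2 it was 0 at steady state, against 2 with voom and 0 to 1 with a library left out, and 0 after transplant, against 1 with groups by week, 1 without low libraries, 3 with voom, 2 with DESeq2 and 0 to 1 with a library left out. For transplanted over steady-state cells it was 0, against 1 with voom in HSC, 1 without low libraries in HPC-2 (0 to 1 with a library left out) and, in HPC-1, 1 with no filter, groups by week, without low, near-identical or nearer-other libraries, 2 with DESeq2 and 0 to 1 with a library left out. DESeq2 gave 3 for late over early HPC-1 and 2 for the difference of transplant effects between HSC and HPC-1, and the difference between HSC and HPC-2 gave 0 to 1 with a library left out. Over the periods against steady state 1 was called with the block by 12 description numbers (Treml1 in HPC-2), 1 with each population alone (Pf4 in HSC), 3 with voom (Pf4 and Gp1bb in HSC, Ppbp in HPC-2) and 4 with DESeq2 (all in HPC-1). The cause of these shifts was not tested.

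Direction turned round on the log2 scale for Ppbp in HPC-2 over HPC-1 at steady state (-5.68 without low libraries, -0.39 with voom, -5.68 to 9.68 with a library left out), Gp9 there (-1.09 with voom), Ppbp in transplanted over steady-state HPC-2 (1.72 with the block by 12 description numbers, 9.38 without low libraries, 5.81 with voom, -0.75 to 9.22 with a library left out), and Ppbp in HSC over HPC-2 at steady state (-0.072 to 10.37 with a library left out). In HPC-2 these values of Ppbp turned on steady-state replicate 3. Late over early HPC-1 gave 0 to 1.87 for Treml1 and 0 to 1.21 for Cavin2 with a library left out, and 0 for Treml1 without near-identical libraries.

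Deviations of same-numbered libraries of different populations had low median correlations (0.008 to 0.049), with single pairs up to 0.664. Without unmatched pairs as a baseline, this does not settle whether the numbers pair the libraries. The main fit used no pairing. With the replicate block by replicate number, the adjusted p of Pf4 in transplanted over steady-state HSC was 0.695. RLE scaling moved the median of all genes by over 0.1 in most comparisons, for HPC-2 over HPC-1 at steady state to -0.04, against -0.46 with TMM. Libraries with few genes limit what a 0 can show.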
